A study of Mactra quadrangularis with 6 samples.

Results

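Monocarboxylate transporters carry small organic acids such as lactate, pyruvate, ketone bodies and acetate across cell membranes. The genes described here are those of the surf clam Mactra quadrangularis whose description, after the species name was removed, holds the phrase monocarboxylate transporter, with or without sodium-coupled before it. The pattern matched 81 of the 25145 genes in the deposited table. Of these, 62 had a description without the word sodium-coupled (written MCT with its number) and 19 a sodium-coupled one (SMCT). The 62 are called proton-linked below as a group name only, since no description says that the protein moves protons. A description names the closest described relative, most often in the scallop Mizuhopecten yessoensis (38 members) or in the oysters Crassostrea gigas (16) and Crassostrea virginica (14), and is not a tested function.

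Transporters with an MCT number belong to the SLC16 family. In mammals MCT1, MCT2, MCT3 and MCT4 move a proton together with lactate or pyruvate, so they couple the export of glycolytic end products to the acid balance of the cell. Other SLC16 members have different cargo or none known: in mammals MCT9 carries carnitine, MCT10 aromatic amino acids and MCT12 creatine, and the cargo of MCT5, MCT13 and MCT14 is poorly known. Sodium-coupled transporters belong to the SLC5 family, the family of the sodium-glucose cotransporters, and take up short-chain acids along the sodium gradient. The mantle of a bivalve secretes the shell, and bivalve tissues short of oxygen reduce pyruvate largely to opines.

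The series holds 6 mantle libraries, 3 labelled as acidification stress (acidified libraries 1 to 3) and 3 labelled as normal control (control libraries 1 to 3). The series text speaks of high pH for the stressed clams, which is at odds with acidification, so acidified and control are used only as the names the labels give. Strain, age, dose and duration are not stated in the labels, nor the shell colour behind each library or whether a library is 1 animal or a pool. The p-values therefore measure only the spread between these libraries, which may be technical. The comparison asks which mantle transcripts differ between the treatments.

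Total counts ran from 28482358 to 37066703 per library. On the first principal component of all genes, which held 31.5% of the variance, acidified library 3 lay at -112.63 and the control libraries between 47.93 and 51.46, while acidified library 2 stood apart on the second. Genes of the shell-forming mantle (perlucin, tyrosinase, carbonic anhydrase and the like) summed to 944 to 1196 FPKM in the acidified and 920 to 1169 in the control libraries. Lists for other cells summed, in the same order, to 2558 to 4173 and 3530 to 5266 for muscle, 1609 to 2096 and 1375 to 1815 for haemocytes, 931 to 1074 and 971 to 1273 for the digestive gland, 495 to 547 and 504 to 643 for ciliated cells and 94.2 to 111 and 120 to 138 for the germ line. The median log2 fold change of the genes tested, on the TMM scale used for the members below, was -0.35 for muscle, 0.33 for haemocytes, 0.10 for shell formation, 0.06 for the digestive gland, -0.09 for ciliated cells and 0.02 for the germ line, so those of muscle and haemocytes lay farther from 0 than the family's 0.16. With library size as the only scaling the haemocyte median was -0.02 and that of muscle -0.69, where the median of all genes was -0.33. Relative to all genes the 2 lists then lay at 0.30 and -0.37. In bulk tissue, fewer cells of a type and less RNA per cell cannot be told apart, and the part of these cells in the results below was not tested.

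The family was unevenly divided by type. MCT12 descriptions were the most frequent, with 26 genes, followed by SMCT1 with 14, MCT9 with 10, MCT5 with 8, MCT2 with 7, MCT14 and SMCT2 with 5 each and MCT4 with 2. MCT6, MCT10 and MCT13 had 1 gene each, and 1 gene had no number. Of the 19 sodium-coupled members, 12 were annotated by gene ontology with sodium-dependent multivitamin transport and 2 with lactate transport, so their description and their annotation name different cargo. Of the 62 proton-linked members, 39 carried the term for monocarboxylic acid transport activity, 18 the term for lactate transport activity and 2 the term for creatine transport. A pair carried terms foreign to transport: the MCT5 gene Mve15G008650 those of a peroxisomal transaminase, and the MCT10 gene Mve14G004770 that of reverse transcriptase.

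Most of the family's transcripts came from few genes. In FPKM, which scales counts by length and library size and so allows genes to be set side by side, the 10 highest members held 70.4% of the summed mean. Only 17 of the 81 members reached a mean of 5 FPKM and 38 reached 1 FPKM. A count of 0 allows up to 3 counts, or 0.105 CPM (counts scaled to library size) in the shallowest library, and 3 members (Mve04G002500, Mve09G012040 and Mve15G004800) had no count in any library. A count was found in all 6 libraries for 51 members. The summed FPKM of the family stood at 439, 375 and 361 in the acidified libraries and 394, 421 and 428 in the controls, which overlapped. Without the highest member it stood at 259, 258 and 260 against 295, 279 and 340, where each acidified library lay below each control, on a scale on which the median log2 fold change over all genes was -0.31.

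**Figure D1:**
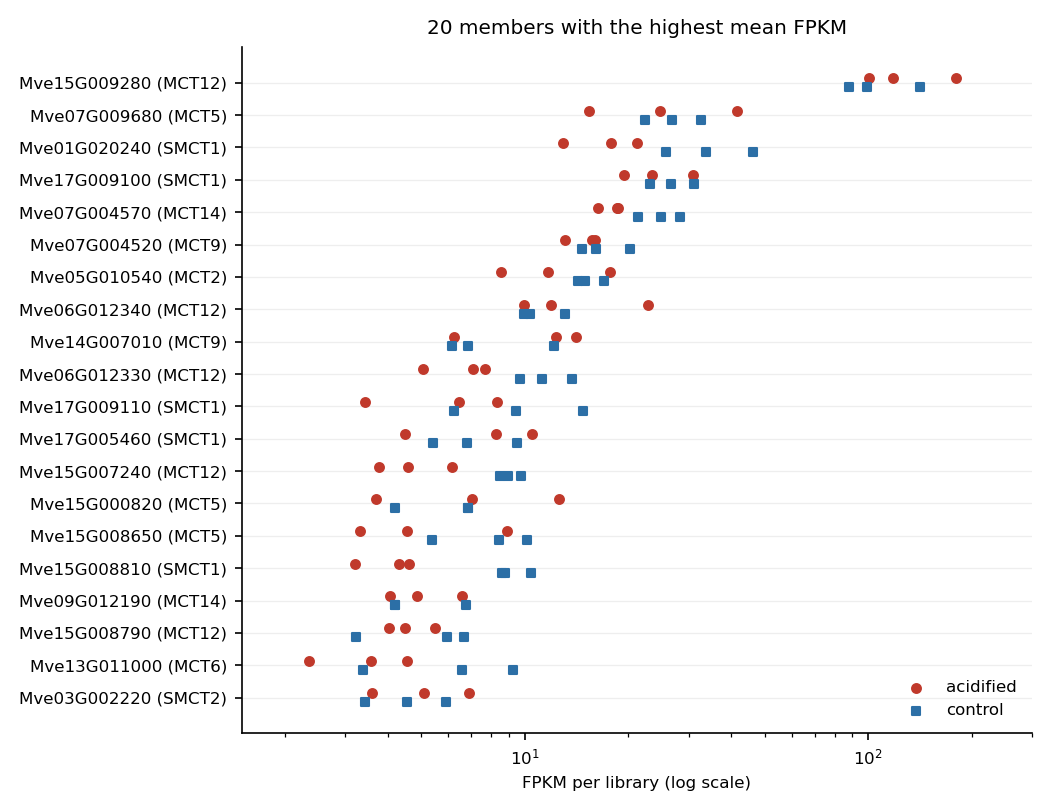
FPKM per library (log axis) of the 20 members with the highest mean, with acidified libraries as red circles and control libraries as blue squares. Mve15G009280 lies between 88.0 and 180 FPKM, while no other member exceeds 46.3 FPKM in any library.

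The highest FPKM belonged to the MCT12 gene Mve15G009280 (chromosome 15, 34944696 to 34945986), at 180, 118 and 101 FPKM in the acidified libraries and 98.9, 142 and 88.0 in the controls. The groups overlapped, with a log2 fold change of 0.59 ± 0.28 (SE; edgeR, adjusted p = 0.328). Its transcript length, worked out by dividing counts by FPKM, was 15.4% of the median length of the members tested, and its 8317 counts over the 6 libraries were fewer than those of several members ranked below it. By counts the leading member was the MCT5 gene Mve07G009680 (chromosome 7, 32570614 to 32595668), with 54154 counts and 24.8, 15.4 and 41.6 FPKM in the acidified libraries against 22.4, 26.8 and 32.6 in the controls. Acidified libraries lay at both ends of the range. Its mean was 27.3 ± 13.3 FPKM in the acidified and 27.3 ± 5.15 in the control group (SD, n = 3 each).

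The leading sodium-coupled genes were SMCT1 types. Mve01G020240 stood at 17.3 ± 4.16 FPKM in the acidified and 35.2 ± 10.4 in the control group, and Mve17G009100 (chromosome 17, 32364694 to 32388174) at 24.6 ± 5.79 and 27.0 ± 4.01 (SD, n = 3 each). The neighbours in this order, Mve07G009680, Mve01G020240 and Mve17G009100, differ by less than the spread of their libraries. The MCT14 gene Mve07G004570 stood at 17.9 ± 1.32 and 24.8 ± 3.44 FPKM, and the MCT9 gene Mve07G004520 at 15.0 ± 1.57 and 17.0 ± 2.88. The MCT2 gene Mve05G010540, whose mammalian relative is a high-affinity lactate and pyruvate carrier, stood at 12.6 ± 4.65 and 15.4 ± 1.42 FPKM. The MCT9 gene Mve14G007010 stood at 10.9 ± 4.16 and 8.40 ± 3.31 FPKM. None of these genes had an unadjusted p under 0.05 apart from Mve01G020240, described below.

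The highest genes of the remaining types were low. The MCT6 gene Mve13G011000 had 3.49 ± 1.09 FPKM in the acidified and 6.41 ± 2.93 in the control group, and the SMCT2 gene Mve03G002220 had 5.199 ± 1.66 and 4.62 ± 1.24. The unnumbered Mve01G005860 had 1.89 ± 0.828 and 3.19 ± 0.682 FPKM, and the MCT13 gene Mve09G012180 had 0.738 ± 0.219 and 0.907 ± 0.603. The MCT10 gene Mve14G004770 did not exceed 3 counts in any library.

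Between the groups, 56 of the 81 members had counts enough to be tested, 45 of them proton-linked and 11 sodium-coupled. Members that are high in 1 group only can enter through that group, so the 56 are not the family. No member passed edgeR's quasi-likelihood test at a Benjamini-Hochberg adjusted p under 0.05 over all 17790 genes tested, where 0.0% of all genes passed. At an unadjusted p under 0.05 there were 7 members, or 12.5%, against 17.4% of all genes. Of these, 3 were higher in the acidified libraries (5.36%, against 9.29% of all genes) and 4 were lower (7.14%, against 8.13%). The family's shares were thus no larger than the background. DESeq2 called 2 of the 60 members it gave an adjusted p (Mve15G008810 and Mve18G005160, below), or 3.33%, against 6.26% of all genes.

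The median log2 fold change (acidified over control) of the 56 members was 0.16, beside 0.0 for all genes. It was 0.16 over the 45 proton-linked and 0.17 over the 11 sodium-coupled members. It lay below 0, at -0.17, with library size as the only scaling, where the median of all genes was -0.33, so the family's median relative to all genes was 0.16 in that scaling too. Fold changes below use TMM scaling (edgeR's trimmed mean scaling between libraries), and are therefore relative to the bulk of genes. The TMM factors were 0.849 to 0.987 in the acidified and 1.08 to 1.19 in the control libraries, so these fold changes lie above those read from FPKM. Of the members tested, 35 lay above 0 (62.5%, against 49.8% of all genes), and the range ran from -1.74 to 1.89. The groups did not overlap, on TMM-scaled CPM, for 8 members (14.3%, against 25.6% of all genes).

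**Figure D2:**
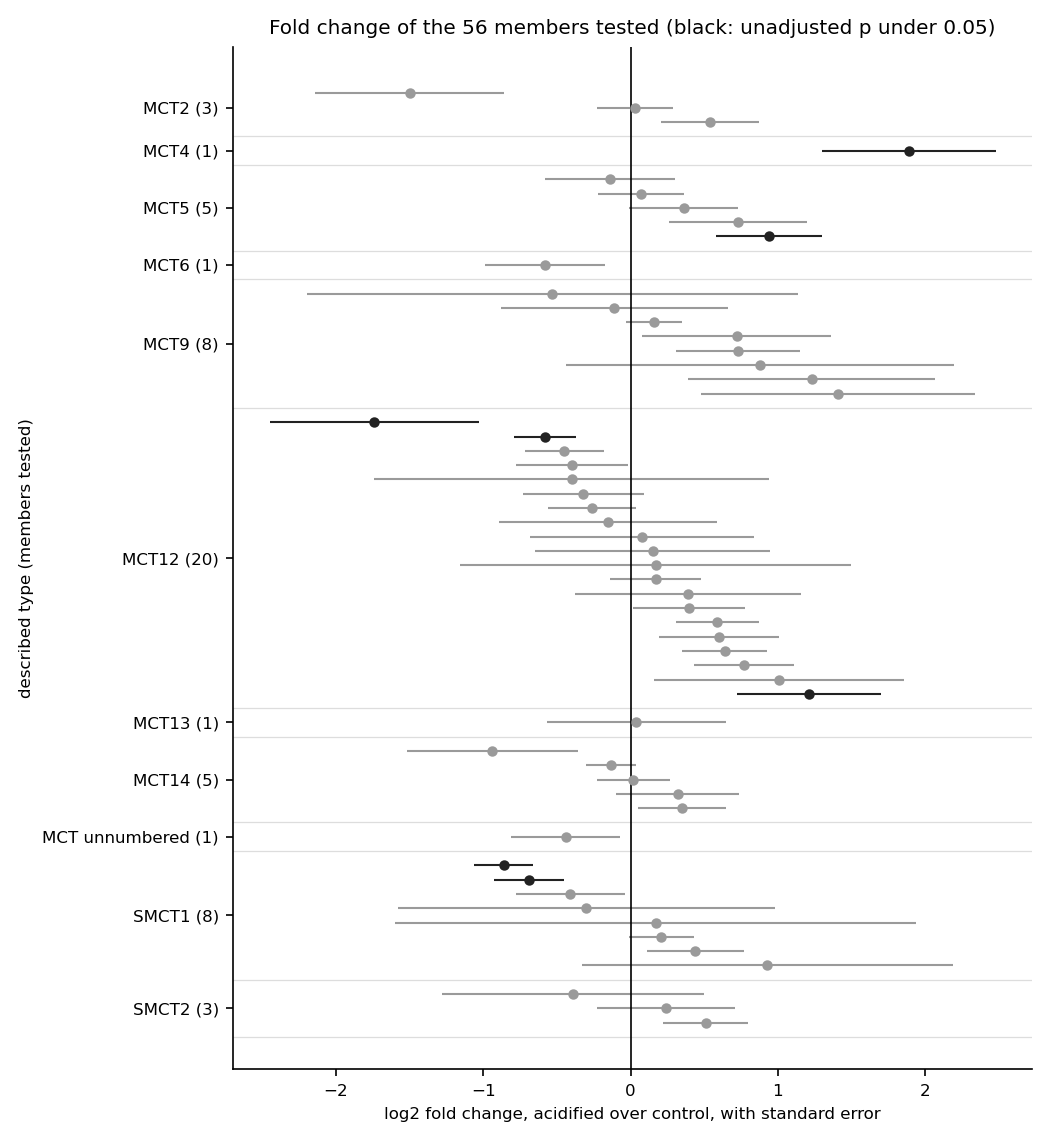
Log2 fold change (acidified over control) with its standard error for the 56 members tested, grouped by described type, with the 7 members at an unadjusted p under 0.05 in black. Points lie on both sides of 0 within MCT2, MCT5, MCT9, MCT12, MCT14, SMCT1 and SMCT2, and the 4 black points below 0 are of the MCT12 and SMCT1 types.

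The sodium-coupled gene with the smallest p was the SMCT1 gene Mve15G008810 (chromosome 15, 33604011 to 33642191). Its gene ontology terms are those of sodium-dependent multivitamin, biotin and pantothenate transport, with none for lactate transport. It stood at 13.3, 15.8 and 11.51 CPM in the acidified libraries and at 23.5, 24.2 and 26.0 CPM in the controls. Each acidified library lay below each control. The log2 fold change was -0.86 ± 0.20 (edgeR, adjusted p = 0.130; DESeq2, adjusted p = 0.0113). It kept an unadjusted p under 0.05 under each of 15 alternatives, with adjusted p from 0.0113 to 0.305. Without control replicate 3 the DESeq2 adjusted p was 0.0706.

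The other sodium-coupled gene at an unadjusted p under 0.05 was Mve01G020240 (chromosome 1, 66001271 to 66043142), also SMCT1 and with the same gene ontology terms. It stood at 77.7, 72.4 and 55.0 CPM in the acidified libraries and at 109, 84.0 and 137 in the controls. The groups did not overlap, and the log2 fold change was -0.69 ± 0.24 (edgeR, adjusted p = 0.218). Without acidified replicate 3, control replicate 1 or control replicate 3 its unadjusted p was above 0.05. Other settings, the removal of the length trend among them, also lost it. The other 9 sodium-coupled members tested had p above 0.05, 6 of them above 0 and 3 below. In summed FPKM the sodium-coupled members stood at 76.4, 80.2 and 53.7 in the acidified libraries and 91.8, 79.8 and 126 in the controls, and these groups overlapped.

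Among the proton-linked genes, the MCT4 gene Mve02G006390 (chromosome 2, 19388957 to 19403996) had the smallest p. The MCT4 of mammals exports lactate from glycolytic cells. It stood at 1.85, 5.56 and 1.84 CPM in the acidified libraries and at 1.08, 0.616 and 0.791 in the controls. The acidified libraries all lay above the controls, and library 2 was far above the other acidified libraries. The log2 fold change was 1.89 ± 0.59 (edgeR, adjusted p = 0.182), and without acidified replicate 2 it was 1.15 with an unadjusted p above 0.05. The gene was low, with 22 to 144 counts per library. The second MCT4 gene, Mve04G002520, was not tested and had 4, 0 and 67 counts in the acidified and 0, 14 and 0 in the control libraries.

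Among the 20 MCT12 genes tested, 1 was higher and 2 were lower at an unadjusted p under 0.05 (15.0%, against 17.4% of all genes). Mve15G007240 (chromosome 15, 25173388 to 25195138) stood at 17.6, 14.6 and 12.5 CPM in the acidified libraries and 21.5, 24.8 and 20.6 in the controls. The groups did not overlap, and the log2 fold change was -0.58 ± 0.21 (edgeR, adjusted p = 0.225). Mve07G004560 (chromosome 7, 14657583 to 14664169) stood at 0.356, 0.463 and 0.795 CPM against 2.58, 2.24 and 0.607, and control library 3 lay among the acidified libraries. Its log2 fold change was -1.74 ± 0.71 (edgeR, adjusted p = 0.268). Mve01G013780 (chromosome 1, 43782831 to 43798552) stood at 2.49, 1.58 and 2.77 CPM against 0.595, 1.12 and 1.24, with no overlap, and its log2 fold change was 1.21 ± 0.49 (edgeR, adjusted p = 0.268). These calls rested on few libraries. The unadjusted p of Mve15G007240 passed 0.05 without acidified replicate 2, acidified replicate 3 or control replicate 2, and that of Mve07G004560 without acidified replicate 1, acidified replicate 2, control replicate 1 or control replicate 2. That of Mve01G013780 stayed under 0.05 only without acidified replicate 2, and passed it without each of the other 5.

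In 3 further genes the groups did not overlap while the unadjusted p was above 0.05. The MCT2 gene Mve02G006930 (chromosome 2, 21717456 to 21720562) stood at 1.60, 0.386 and 0.445 CPM in the acidified libraries and 2.27, 2.13 and 2.51 in the controls, a log2 fold change of -1.50 ± 0.64 (edgeR, adjusted p = 0.287). The MCT14 gene Mve01G011590 stood at 0.677, 0.425 and 0.636 CPM against 1.05, 1.01 and 1.29, a log2 fold change of -0.94 ± 0.58 (edgeR, adjusted p = 0.449). On the higher side, the MCT12 gene Mve07G004500 stood at 8.79, 11.9 and 8.90 CPM against 4.56, 6.08 and 8.36, a log2 fold change of 0.64 ± 0.29 (edgeR, adjusted p = 0.316). Its lowest acidified library lay just above control library 3.

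The remaining gene at an unadjusted p under 0.05 was the MCT5 gene Mve15G008760 (chromosome 15, 33534673 to 33551156). It stood at 22.2, 9.50 and 12.3 CPM in the acidified libraries and 9.86, 6.11 and 6.94 in the controls. Acidified library 2 lay just below control library 1, so the groups overlapped. The log2 fold change was 0.94 ± 0.36 (edgeR, adjusted p = 0.246), and without acidified replicate 1 it was 0.51 with an unadjusted p above 0.05. The p also passed 0.05 without control replicate 2 or control replicate 3, with library size only and on FPKM. The 8 MCT9 genes tested held none at p under 0.05, with 6 above 0 and a median of 0.73, and neither did the 5 MCT14 or the 3 MCT2 genes.

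Position added detail that the descriptions do not give. The members lay on 16 of the 19 chromosomes and on 1 unplaced contig, and chromosome 15 alone held 17 of the 81. Members on 1 chromosome were joined into a cluster where the gap to the next was at most 100 kb. This gave 13 clusters with 30 members, 12 of them pairs. In no case did a member overlap another gene. Genes of 1 cluster may be close copies that share reads, so their separate values are uncertain where the copies are alike, and positions are those of the deposited table, for which no genome build is named.

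The largest cluster lay on chromosome 15 from 33352564 to 33642191 and held 6 members with 10 other genes between them. In order these were MCT5 (Mve15G008650), MCT12 (Mve15G008690), MCT12 (Mve15G008750), MCT5 (Mve15G008760), MCT12 (Mve15G008790) and SMCT1 (Mve15G008810). The cluster thus joined proton-linked and sodium-coupled descriptions, of the SLC16 and the SLC5 family. Mve15G008750 was at 0 in 5 libraries and at 4 counts in control library 2. The other 5 had mean levels within a narrow band, from 3.76 to 6.78 FPKM.

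The fold changes of these 5 did not share a sign. Mve15G008760 lay at 0.94 ± 0.36 and the sodium-coupled Mve15G008810, at the end of the cluster, at -0.86 ± 0.20. Mve15G008650 (5.58 ± 2.93 FPKM in the acidified and 7.99 ± 2.43 in the control group) lay at -0.14 ± 0.44, Mve15G008690 (2.99 ± 0.980 and 4.53 ± 0.937) at -0.26 ± 0.30 and Mve15G008790 (4.66 ± 0.748 and 5.28 ± 1.81) at 0.17 ± 0.31. None of the 3 had an unadjusted p under 0.05. Mve15G008790 lay below 0 with library size as the only scaling, at -0.16.

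**Figure D3:**
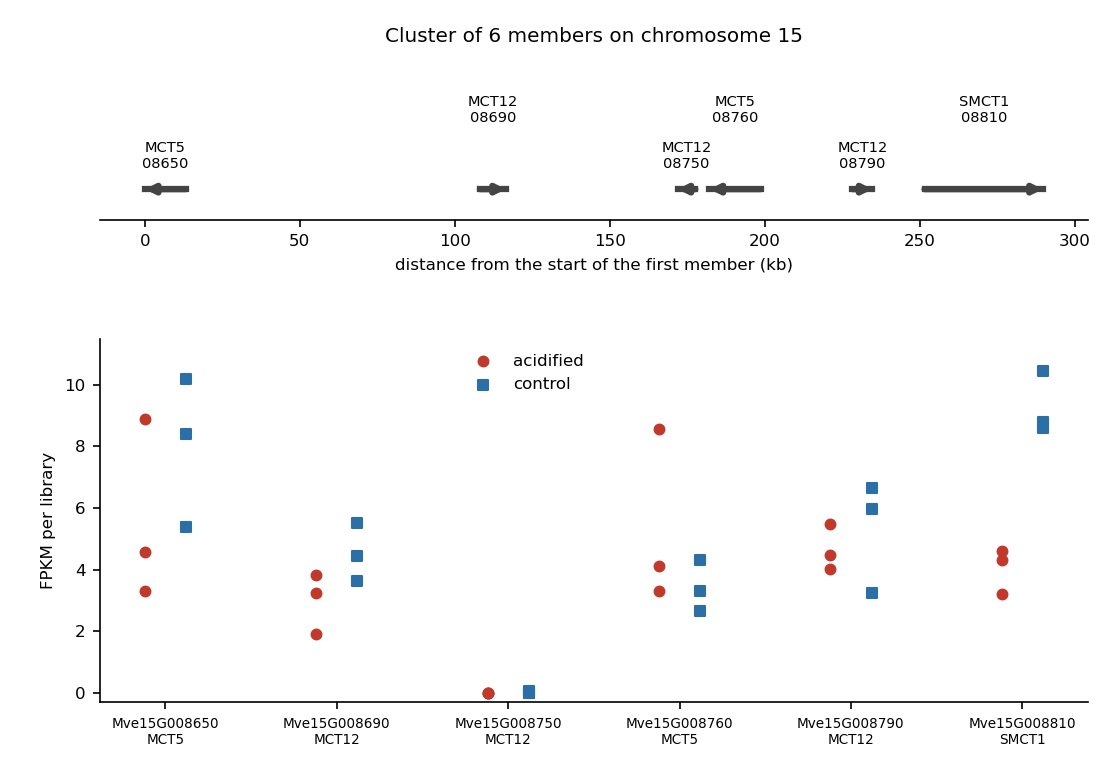
The 6 clustered members on chromosome 15, drawn to scale with arrows for strand against the distance from the first member in kb (above), and their FPKM in each library as deposited (below; acidified red circles, control blue squares). The SMCT1 gene Mve15G008810 at the right end is the one whose acidified and control libraries are farthest apart, at 4.05 ± 0.738 and 9.28 ± 1.02 FPKM.

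Neighbours in a cluster often differed in level. Over the 13 neighbouring pairs with both genes tested, the ratio of the higher to the lower mean FPKM ran from 1.12 to 39.7, with a median of 1.80. The widest was on chromosome 7, where the MCT14 gene Mve07G004570 stood at a mean of 21.4 FPKM and the adjoining MCT12 gene Mve07G004560 at 0.538. In 8 pairs the log2 fold changes had the same sign and in 5 the opposite sign. The MCT12 pair on chromosome 6 was one of the latter. Mve06G012330 (40192447 to 40214759) stood at 13.6, 21.2 and 23.9 CPM in the acidified libraries and 32.6, 23.3 and 24.4 in the controls, a log2 fold change of -0.45 ± 0.27 (edgeR, adjusted p = 0.426). Mve06G012340 (40220279 to 40239476) stood at 34.0, 72.4 and 32.9 CPM against 32.9, 25.3 and 23.7, a log2 fold change of 0.77 ± 0.34 (edgeR, adjusted p = 0.305). Both overlapped between the groups, the former because acidified library 3 lay above control library 2 and the latter because acidified library 3 lay at the level of control library 1.

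A number of members were counted in some libraries and at 0 in others. Of the 61 members with at least 30 counts in a library, 14 had no count at all in another library, or 23.0%, against 11.1% of all such genes in the table. This measure was chosen after the values were seen and carries no test. The genes set beside the members were not matched to them in expression level. The SMCT1 gene Mve15G002900 had 0, 46 and 400 counts in the acidified libraries and 145, 0 and 334 in the controls. The SMCT1 gene Mve06G006720 had 150, 38 and 0 counts in the acidified libraries and 159, 79 and 63 in the controls. For Mve15G002900 each group held both a library at 0 and a high one, while Mve06G006720 was at 0 in acidified library 3 alone.

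**Figure D4:**
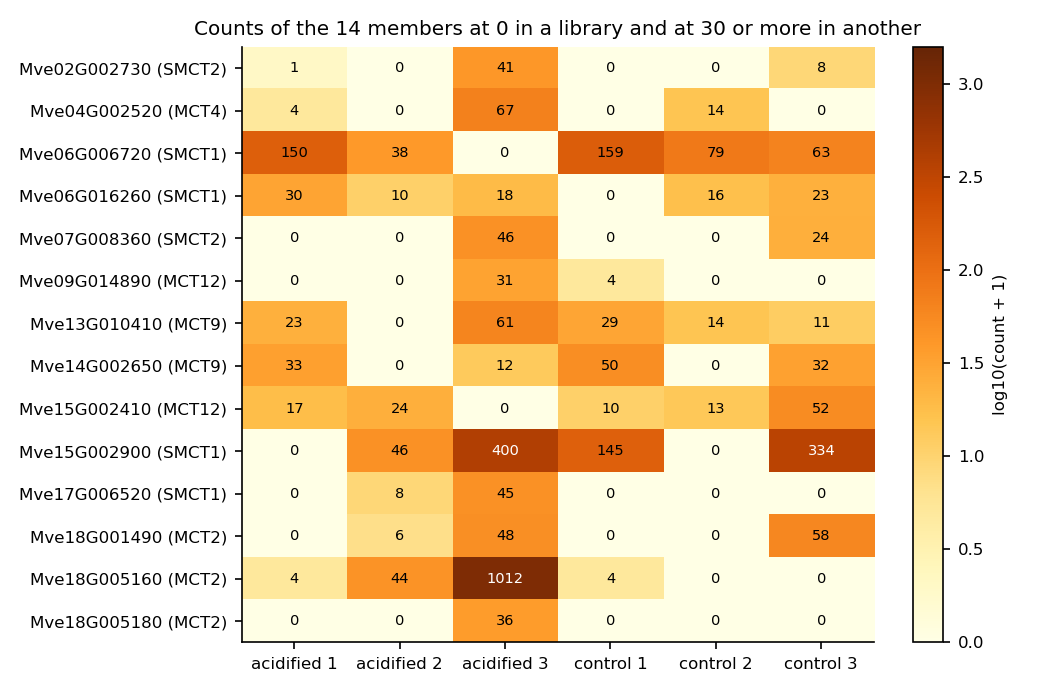
Counts per library of the 14 members with 0 counts in a library and at least 30 in another, coloured by log10(count + 1). Acidified library 3, which has the largest total count, has the highest count in 9 of the 14 rows, up to 1012 for Mve18G005160. The counts are not scaled to library size, and the share of all such genes highest in that library was not worked out.

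Sparse members that were not tested were often highest in acidified library 3. Of the 18 members that were not tested but had at least 10 counts over the series, 10 were highest in acidified library 3 by CPM, or 55.6%, against 15.2% of all such genes in the table. This measure was not planned in advance either and carries no test, and some of the 18 rest on few counts. Leading among the 10 was the MCT2 gene Mve18G005160 (chromosome 18, 12594077 to 12603226), with 4, 44 and 1012 counts in the acidified libraries and 4, 0 and 0 in the controls. Acidified library 3 held 95.1% of its counts. DESeq2 was run without edgeR's filter on low counts, though it gave no adjusted p to some sparse members. For Mve18G005160 its log2 fold change was 8.25 ± 2.54 with an adjusted p of 0.0265, and without acidified replicate 3 the adjusted p was 0.238. Leaving out acidified replicate 2, control replicate 2 or control replicate 3 also took it past 0.05, at 0.0934, 0.0605 and 0.0750. A neighbouring MCT2 gene, Mve18G005180, had 36 counts in acidified library 3 and none elsewhere.

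Counts in 1 group only were found for 8 members, and 7 of them rested on a single library. The share of all genes counted in 1 group only was not worked out, so the 8 are not read as a trait of the family. Besides Mve18G005180 these were Mve01G016590 (MCT2, 13 counts) and Mve19G003970 (MCT5, 11 counts) in acidified library 3, and Mve01G017620 (MCT5, 4 counts) and Mve14G002320 (MCT9, 8 counts) in acidified library 1. In the controls they were Mve14G002230 (MCT9, 6 counts) in library 3 and Mve15G008750 (MCT12, 4 counts) in library 2. The SMCT1 gene Mve17G006520 had 0, 8 and 45 counts in the acidified libraries and none in the controls. Acidified library 3, which stood apart over all genes, was thus the library of 3 of the 7.

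The spread between libraries was wider in the acidified group. The SD of log2 CPM was larger among the acidified than among the control libraries for 37 of the 56 members tested (66.1%, against 58.0% of all genes), with medians of 0.56 and 0.43 for the members and 0.43 and 0.35 for all genes. The most counted member, the MCT5 gene Mve07G009680, showed it: 258, 178 and 502 CPM in the acidified libraries and 206, 249 and 274 in the controls. Its log2 fold change of 0.36 ± 0.37 (edgeR, adjusted p = 0.658) became -0.16 without acidified replicate 3.

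Genes that make or use the carried acids gave a context for the family. Lists of these were defined by description, and 0 genes of any list passed edgeR's adjusted p. With library size as the only scaling the median of every list lay below 0, where that of all genes was -0.33. The small positive medians given below for lactate and opine dehydrogenases, binding partners and SLC5 relatives turned sign there. Relative to all genes they stood at 0.06, 0.06 and 0.05 in that scaling. Lactate and opine dehydrogenases, of which the opine enzymes reduce pyruvate at the end of glycolysis, had 4 of 5 genes tested. Their median log2 fold change was 0.04, with no gene at an unadjusted p under 0.05. The octopine dehydrogenase gene Mve03G009440 stood at 12.97 ± 4.94 FPKM in the acidified and 15.05 ± 3.25 in the control group (SD, n = 3 each), a log2 fold change of 0.09 ± 0.29. A second octopine dehydrogenase gene, Mve03G010050, lay at 0.45 ± 0.28 and another, Mve03G010040, at -0.01 ± 0.34. The mitochondrial D-lactate dehydrogenase gene Mve06G007880 lay at -0.26 ± 0.23.

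Enzymes and carriers of pyruvate were all tested, 13 of 13, with a median of -0.31 that stayed below 0 under each scaling. Relative to all genes the median ran from -0.37 to -0.30 over the scalings. At an unadjusted p under 0.05, 0 were higher and 2 lower (15.4%, against 17.4% of all genes). The gene of mitochondrial pyruvate carrier 1, Mve05G016010, which brings pyruvate into the mitochondrion, stood at 2.93, 2.21 and 3.30 FPKM in the acidified libraries and 6.10, 7.87 and 6.84 in the controls. Every acidified library lay below every control, with a log2 fold change of -0.95 ± 0.28 (edgeR, adjusted p = 0.174; DESeq2, adjusted p = 0.0966). The gene of mitochondrial pyruvate carrier 2, Mve05G009440, lay at 0.11 ± 0.25 (edgeR, adjusted p = 0.863). The pyruvate dehydrogenase kinase gene Mve07G004130, whose product switches off the entry of pyruvate into the citric acid cycle, stood at 13.01 ± 0.773 and 24.8 ± 4.64 FPKM, a log2 fold change of -0.58 ± 0.19 (edgeR, adjusted p = 0.195). On the higher side, a phosphoenolpyruvate carboxykinase gene (Mve06G009330) lay at 0.55 ± 0.60 and a component X gene of pyruvate dehydrogenase (Mve16G007330) at 0.16 ± 0.23, both with overlapping groups.

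Among enzymes of ketone bodies and short-chain acids, 15 of 19 genes were tested, with a median of -0.27 that also stayed below 0 under each scaling. Relative to all genes this median ran from -0.44 to -0.22. At an unadjusted p under 0.05, 1 was higher and 3 were lower (26.7%, against 17.4% of all genes). The cytoplasmic acetyl-CoA synthetase gene Mve03G002330, which activates acetate, stood at 3.67, 3.42 and 2.31 FPKM in the acidified libraries and 13.6, 7.68 and 8.99 in the controls. No acidified library reached the controls, and the log2 fold change was -1.36 ± 0.29 (edgeR, adjusted p = 0.120; DESeq2, adjusted p = 0.00207). The acetoacetyl-CoA synthetase gene Mve11G002070, which activates a ketone body, stood at 2.28 ± 0.528 and 5.95 ± 1.40 FPKM, a log2 fold change of -1.05 ± 0.29 (edgeR, adjusted p = 0.161; DESeq2, adjusted p = 0.0485). In contrast, the D-beta-hydroxybutyrate dehydrogenase genes Mve02G017290 and Mve05G007650 lay at 1.33 ± 0.55 and 1.02 ± 0.44 (edgeR, adjusted p = 0.273 and 0.292). Both were highest in acidified library 2, at 23.7 and 11.51 FPKM. Their groups overlapped, with acidified library 1 below every control, at 4.72 and 3.69 FPKM. Further genes of this enzyme, Mve02G016360 and Mve01G007440, lay at 0.54 ± 0.33 and -0.27 ± 0.21.

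Proteins known to bind monocarboxylate transporters in vertebrates include basigin and its relatives, which bring the transporter to the cell surface, and some carbonic anhydrases. The list took every description that holds carbonic anhydrase, a beta type among them, so its genes are not shown to bind a transporter. Here 12 of 17 matched genes were tested, all carbonic anhydrases or their relatives, which the shell formation list also holds, but for a neuroplastin gene (Mve10G007140) at 0.12 ± 0.27. The median was 0.07, and at an unadjusted p under 0.05 there were 2 higher and 0 lower (16.7%, against 17.4%). The 2 were carbonic anhydrase genes, Mve06G007180 with 12.8, 66.2 and 17.1 FPKM in the acidified libraries and 6.57, 10.2 and 5.85 in the controls (log2 fold change 2.43 ± 0.66; edgeR, adjusted p = 0.154; DESeq2, adjusted p = 0.00164), and Mve11G007100 with a log2 fold change of 1.65 ± 0.34 (edgeR, adjusted p = 0.120; DESeq2, adjusted p = 0.00446). A carbonic anhydrase II gene (Mve06G005770) and a beta carbonic anhydrase gene (Mve01G015410) lay at -0.73 ± 0.74 and -0.28 ± 0.31. Another carbonic anhydrase II gene, Mve05G008110, lay at 2.12 ± 1.23, and none of these had an unadjusted p under 0.05.

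The SLC5 relatives of the sodium-coupled members, mainly glucose cotransporters, had 15 of 17 genes tested and a median of 0.08. At an unadjusted p under 0.05, 1 was higher and 2 were lower, or 3 of 15, against 17.4% of all genes. Sodium/glucose cotransporter 4 genes lay on both sides, Mve02G000940 at 0.79 ± 0.21, Mve09G003960 at 0.62 ± 0.30 and Mve11G014560 at -0.39 ± 0.16, and the sodium/glucose cotransporter 5 gene Mve11G007400 at -0.88 ± 0.30. Genes described as other solute carriers had a median of -0.21 over 96 tested, of which 24.0% were at an unadjusted p under 0.05, against 17.4% of all genes, 8 of them higher and 15 lower. Their members with the smallest p were a peptide transporter relative (Mve05G006790, 1.03 ± 0.22) and Mve01G000780, of solute carrier family 22, which had no count in the controls, on the higher side, and a nucleoside transporter (Mve12G002420, -1.01 ± 0.21) and a glucose transporter 1 relative (Mve04G001160, -0.87 ± 0.23) on the lower.

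**Figure D5:**
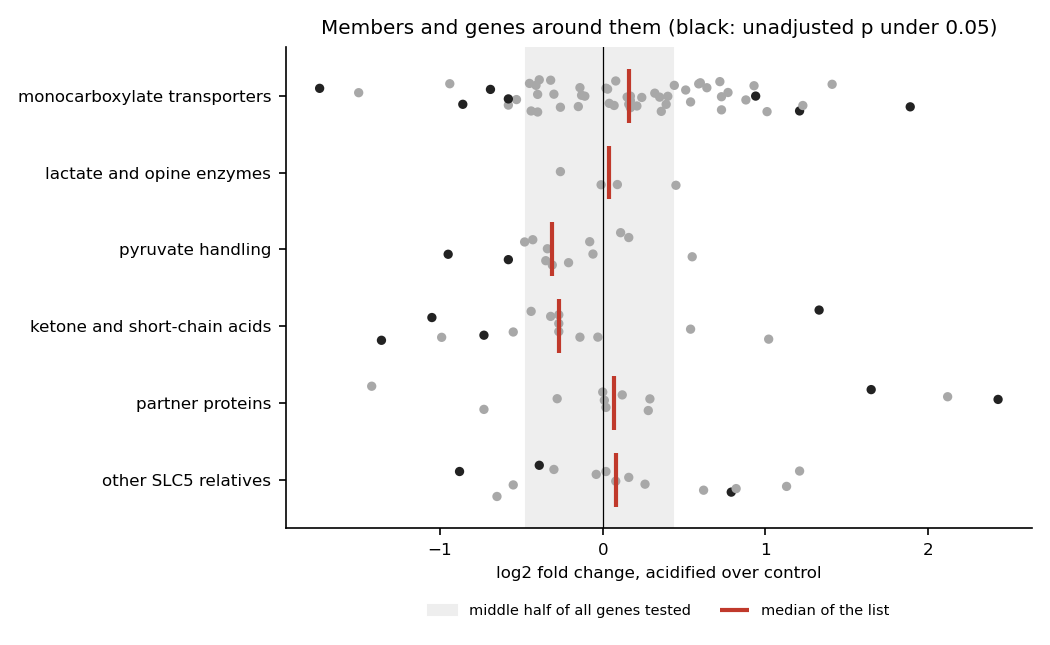
Log2 fold change (acidified over control) of each tested gene in the family and in 5 lists around it, with black points at an unadjusted p under 0.05, a red line at each list's median and a grey band from -0.47 to 0.43 that spans the interquartile range of all genes tested. The family's median is 0.16, and those of the pyruvate and ketone body lists are -0.31 and -0.27.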

How the data were processed

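Per the labels' protocols, poly(A) RNA from mantle was made into strand-marked paired-end libraries and sequenced by Illumina NovaSeq. The tools, per the submitters' processing notes, were cutadapt 1.9, HISAT2 2.2.1, StringTie 2.1.6, DESeq2 and edgeR, with no roles given. No genome build is named in the sources used here. The authors deposited 1 table with raw counts for each gene, which are whole numbers, and the authors' FPKM values, which scale counts by length and library size, per the file headers. Its 12 columns for 6 libraries that are no sample here were set aside. No genome or sequence table was used here, so no sequence is shown.

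The counts were tested with edgeR 4.0.16 (R 4.3.3): filterByExpr at its default minimum count of 10, TMM scaling, and a quasi-likelihood fit of group alone, with Benjamini-Hochberg adjustment over the 17790 genes tested. The filter set 7355 genes aside. Standard errors were derived from the F statistic. The fit was also run on simulated counts with known changes. These were drawn with the spread the fit had estimated and with means scaled by library size alone. They therefore cannot test the TMM scaling or the effect of a library that stands apart. Alternatives used DESeq2 1.42.0 and limma 3.58.1, the latter on log2 CPM (prior count 2) or on log2(FPKM + a pseudocount of 0.1 or 1) for genes with a mean FPKM of at least 0.5. SDs and standard errors include the spread between libraries, while the floor for a count of 0 covers counting error only.

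The members and lists were chosen with earlier results of these data known. Named members were those at an unadjusted p under 0.05, the 10 with the highest mean FPKM, those of clusters of 3 or more, those counted in 1 group only and the highest of each type. From each list the 2 with the smallest p per direction were named. Other genes named in the text (uneven or sparse members, neighbours and further genes of a list) were chosen after their values were seen. Some list patterns matched words by accident: the digestive gland pattern for amylase also matched tubulin polyglutamylases, and the germ line pattern matched an imidazoline enzyme.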

Additional observations from a re-analysis of the deposited data

How the results depend on the processing

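The 7 members at an unadjusted p under 0.05 kept their direction under each alternative run, and 7 of 7 kept that p in DESeq2, against 4 on FPKM and 4 with the replicate block, which lost Mve01G020240, Mve07G004560 and Mve01G013780. Higher members at an unadjusted p under 0.05 numbered 3, and became 6 in DESeq2, 5 with the length trend removed, 5 with no filter on low counts, 1 with library size only, 1 on log2(FPKM + 0.1) and 0 on log2(FPKM + 1). Lower ones numbered 4, and became 7 with library size only, 7 on log2(FPKM + 0.1) and 8 on log2(FPKM + 1). Over all genes, higher calls moved from 9.29% to 3.24%, 3.67% and 3.68% under these last 3 settings and lower calls from 8.13% to 17.7%, 19.8% and 20.1%. In DESeq2, with the length trend removed and with no filter, higher calls were 8.08%, 8.78% and 7.36% of all genes. The members tested numbered 56, but 78 in DESeq2 and with no filter and 43 on FPKM. With the replicate number as a block 2 members were called higher and 3 lower, beside 7.25% and 6.74% of all genes. Same-numbered libraries, whose deviations from the group means correlated at 0.0089, -0.0435 and -0.0067, were not taken as paired. With a library left out, calls ranged from 2 to 5 higher and from 2 to 4 lower, of 60 to 64 members tested. Over all genes these shares ran from 6.97% to 8.71% and from 5.93% to 8.42%. Members whose groups did not overlap numbered 12 to 19 against 8, with 33.7% to 38.0% of all genes against 25.6%. At an adjusted p under 0.05 DESeq2 called 2 members, and 0 to 4 with a library left out (chosen after seeing the data), while edgeR and limma called 0 in each alternative. The share of all genes that DESeq2 called with a library left out was not worked out. The median log2 fold change of 0.16 became -0.17 with library size only, -0.15 on log2(FPKM + 0.1) and -0.11 on log2(FPKM + 1), where the median of all genes was -0.33, -0.31 and -0.23. It was 0.28 in DESeq2 and 0.28 with no filter on low counts, which test more sparse members, and 0.13 to 0.24 with a library left out. Clusters numbered 11 to 14 under other limits, against 13.

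Of 23 named members tested, 8 changed sign somewhere, none of them at an unadjusted p under 0.05. In the order library size only, log2(FPKM + 0.1) and log2(FPKM + 1), Mve17G009100 lay at -0.12, -0.15 and -0.14, Mve07G004520 at -0.17, -0.18 and -0.17, Mve05G010540 at -0.27, -0.35 and -0.32, Mve15G008790 at -0.16, -0.12 and -0.11 and Mve09G012180 at -0.28, -0.14 and -0.10. Mve07G009680 lay at -0.10 and -0.09 on the FPKM scales. Mve07G004570 lay at 0.25 with the length trend removed, and Mve05G010540 at -0.01 with the replicate block. With a library left out, Mve07G009680 ranged from -0.16 to 0.64, Mve17G009100 from -0.01 to 0.32, Mve05G010540 from -0.22 to 0.23, Mve15G008650 from -0.71 to 0.15, Mve15G008790 from -0.07 to 0.40 and Mve09G012180 from -0.26 to 0.78. The cause of these shifts was not tested. The 25 members not tested did not pass the filter on low counts, which asks for enough counts in several libraries, and give no call here.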
